A study of Mus musculus with 24 samples.

Results

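Type I interferon-stimulated genes were followed here in D4M tumours of mice given brequinar, an antibody against PD-1, or both. The set holds 38 genes, found by symbol among the 55414 genes of the count table, and all 38 passed the filter on low counts, with 16029 genes tested in all. The symbols were listed from their known response to interferon, not from a value measured in these tumours, although results of these tumours were known when the list was drawn up. D4M is a transplanted mouse melanoma line, grown here in C57BL/6 hosts of wild-type genotype, and RNA was taken from whole tumour tissue. All animals received intraperitoneal injections, and each of the 4 groups had 6 tumours, with 1 library each. IgG2a tumours received the IgG2a antibody alone, PD-1 tumours the anti-PD1 antibody alone, BRQ+IgG2a tumours brequinar (BRQ) together with the IgG2a antibody, and BRQ+PD-1 tumours brequinar together with the anti-PD1 antibody. Brequinar inhibits DHODH, an enzyme of de novo pyrimidine synthesis, and antibodies to PD-1 block an inhibitory receptor of T cells. Dose, schedule, age and sex of the animals were not stated in the sources available here.

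Type I interferons are secreted by cells that sense foreign or misplaced nucleic acid, and bind the receptor made of IFNAR1 and IFNAR2. The receptor's kinases JAK1 and TYK2 start a phosphorylation signal, and a complex that holds STAT2 and IRF9 then binds the interferon-stimulated response element (ISRE) before many of the genes described here. Interferon gamma, made mainly by T cells and natural killer cells, acts through another element, the GAS, and raises many of the same genes. The products block viral RNA, nucleotides and membranes, or feed back on the signal. In tumours such genes can be expressed by cancer cells, stroma and leukocytes.

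Library totals ran from 19106205 to 34282319 counts, and the lowest count of any member in any library was 23, for Mx2. IgG2a replicates 2 and 3, PD-1 replicate 6 and BRQ+IgG2a replicate 4 stood apart by skeletal muscle transcripts. Their 8 muscle markers summed to 8650 to 32100 CPM (counts scaled to the library total), against at most 1100 in the other 20 libraries, so the main counts are also given without these 4. Of 7 melanocytic markers, Mitf and Pmel were abundant enough to be tested, and Tyr and Dct had no count in any library, so the pigment programme does not mark the cancer cells here. In whole tumours, fewer cells of a type and less RNA per cell cannot be told apart.

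The elements that interferon acts through can be read in the promoters. RefSeq (GRCm38.p6) gave a promoter, from 250 bases before to 50 after the start, for 29 of the 38 members. The ISRE core, searched on both strands as GAAA, any 2 bases and GAAA again, lay in 12 of these 29 (41.4%) and in 3.99% of the promoters of 27025 genes. The GAS core, TTCNNNGAA on both strands, lay in 7 of the 29 (24.1%) and in 9.55% of all. The 2 motifs overlapped in Bst2 and Ifitm3. Ifit1, Ifit3, Ifit3b, Stat2 and Oas1a are shown as members with a core and Dtx3l as one without, and capitals mark the ISRE core.

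Ifit1 (chr19:34640639-34640938, plus strand): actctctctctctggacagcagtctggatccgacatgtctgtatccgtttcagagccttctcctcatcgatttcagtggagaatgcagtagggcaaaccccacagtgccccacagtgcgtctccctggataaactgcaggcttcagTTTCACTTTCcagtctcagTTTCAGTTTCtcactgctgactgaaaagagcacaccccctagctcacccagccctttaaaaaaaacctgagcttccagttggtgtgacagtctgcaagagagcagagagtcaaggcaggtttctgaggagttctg
Ifit3 (chr19:34583279-34583578, plus strand): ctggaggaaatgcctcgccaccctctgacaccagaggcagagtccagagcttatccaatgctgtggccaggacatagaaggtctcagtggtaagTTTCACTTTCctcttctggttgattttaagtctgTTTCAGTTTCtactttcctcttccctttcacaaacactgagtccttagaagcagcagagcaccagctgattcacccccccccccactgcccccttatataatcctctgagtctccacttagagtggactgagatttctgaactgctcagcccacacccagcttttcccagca
Ifit3b (chr19:34607707-34608006, plus strand): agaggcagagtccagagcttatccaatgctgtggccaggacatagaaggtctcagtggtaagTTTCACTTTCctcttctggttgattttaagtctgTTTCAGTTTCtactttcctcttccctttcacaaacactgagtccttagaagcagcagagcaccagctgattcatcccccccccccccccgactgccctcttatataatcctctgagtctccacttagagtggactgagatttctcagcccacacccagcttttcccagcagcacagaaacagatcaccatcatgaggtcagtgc
Stat2 (chr10:128270248-128270547, plus strand): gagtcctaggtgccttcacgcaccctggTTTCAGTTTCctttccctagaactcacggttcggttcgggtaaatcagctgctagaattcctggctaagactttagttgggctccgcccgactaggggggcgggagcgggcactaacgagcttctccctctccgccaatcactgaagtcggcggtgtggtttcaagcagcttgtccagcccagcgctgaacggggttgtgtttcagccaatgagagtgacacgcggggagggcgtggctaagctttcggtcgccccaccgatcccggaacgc
Oas1a (chr5:120907476-120907775, minus strand): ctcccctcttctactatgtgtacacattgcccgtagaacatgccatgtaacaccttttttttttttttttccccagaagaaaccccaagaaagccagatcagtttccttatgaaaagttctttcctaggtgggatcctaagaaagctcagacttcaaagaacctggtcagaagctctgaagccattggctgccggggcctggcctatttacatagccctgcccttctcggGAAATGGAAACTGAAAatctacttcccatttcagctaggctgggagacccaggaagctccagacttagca
Dtx3l (chr16:35938978-35939277, minus strand): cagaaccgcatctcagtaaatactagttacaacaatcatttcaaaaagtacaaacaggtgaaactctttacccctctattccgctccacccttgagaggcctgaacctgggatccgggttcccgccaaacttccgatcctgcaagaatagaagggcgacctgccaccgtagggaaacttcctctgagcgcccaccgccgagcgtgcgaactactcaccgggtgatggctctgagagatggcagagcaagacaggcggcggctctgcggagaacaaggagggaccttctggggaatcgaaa

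The cores of Ifit1 began 104 and 85 bases upstream of the start, those of Ifit3 156 and 122, and those of Ifit3b 188 and 154. Stat2 had 1 core 222 bases upstream, and Oas1a had overlapping cores 20 and 14 bases upstream. The Ifit3 and Ifit3b promoters shared an unbroken run of 169 identical bases that includes both cores. These genes are near-copies, so the split of reads between them is uncertain. Ifit3b took 16.1 to 23.4% of their joint counts in the 24 libraries (median 20.8%). Several members are also neighbours in the RefSeq gene order, with Parp14, Dtx3l and Parp9 adjacent on chromosome 16, Rsad2 and Cmpk2 adjacent on chromosome 12, and Ifit2, Ifit3, Ifit3b and Ifit1 with 2 other genes among them on chromosome 19.

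Per length of transcript, the membrane proteins stood highest. Mean levels over the 24 tumours, as RPKM (CPM per kilobase of exon), were 667 for Ifitm3, 126 for Bst2, 92.4 for Lgals3bp, 33.2 for Isg15 and 26.6 for Ifi27l2a. At the other end were Mx1 at 2.07, Herc6 at 1.41 and Mx2 at 0.587. Ifitm3, the most abundant member, was not called in any of the 7 comparisons.

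Brequinar without checkpoint blockade was compared in BRQ+IgG2a against IgG2a. Of the 38 interferon-stimulated genes, 27 rose, 0 fell and 11 did not pass, where a gene is called at an adjusted p under 0.05 (edgeR quasi-likelihood test, Benjamini-Hochberg over all genes tested). Among all genes tested, 2.96% rose and 0.493% fell in this comparison. The fitted change was positive for all 38, with a median log2 fold change of 0.92 against -0.01 for all genes tested, and 36 had an unadjusted p under 0.05 (14.8% of all genes tested). DESeq2 called 29 members (3.44% of all genes higher) and limma voom 35 (8.4%). In 35 members, 6 of 6 BRQ+IgG2a tumours lay above the IgG2a mean, and in the other 3 members 5 of 6 did. For this measure, here and below, the share of all genes was not counted. Members that move together in a tumour are not separate observations of it. The groups did not overlap at all for 9 members (Irf9, Stat2, Herc6, Ifit2, Eif2ak2, Parp9, Parp14, Dtx3l and Samd9l), a separation seen upward in 1.1% of all genes tested. P-values here set a difference between groups against the spread between tumours within groups, estimated over all 24 libraries.

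The count rested in part on single libraries. It was 14 without IgG2a replicate 6, 15 without IgG2a replicate 5 and 15 without BRQ+IgG2a replicate 6, and between 18 and 30 without each other library of the groups. It was 30 without the 4 muscle-rich libraries, where 3.57% of all genes rose. In the fits without 1 library, here and below, the share of all genes called was not counted. Calls that held whichever of the 12 libraries was dropped, and under the 8 other alternatives, were those of Irf9, Stat2, Herc6, Mx1, Oasl2, Eif2ak2, Parp9, Parp14, Dtx3l, Trim30a, Samd9l, Sp100 and Lgals3bp, 13 in all. Markers of T cells and of natural killer and cytotoxic cells also rose in the same comparison. Of 8 T cell markers 6 rose and of 6 natural killer and cytotoxic markers 4 rose. Beside these, 1 of 7 macrophage markers, 3 of 5 markers of conventional dendritic cells and 0 of 5 of plasmacytoid dendritic cells rose. Of the B cell markers 0 of the 2 tested rose, of the monocyte markers 0 of 3, and of the neutrophil markers 1 of 5. The summed level of the T cell markers ran from 11.0 to 44.7 CPM in IgG2a, with all 8 detected, and from 20.7 to 150 CPM in BRQ+IgG2a. The part of these cells in the result was not tested.

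**Figure D1:**
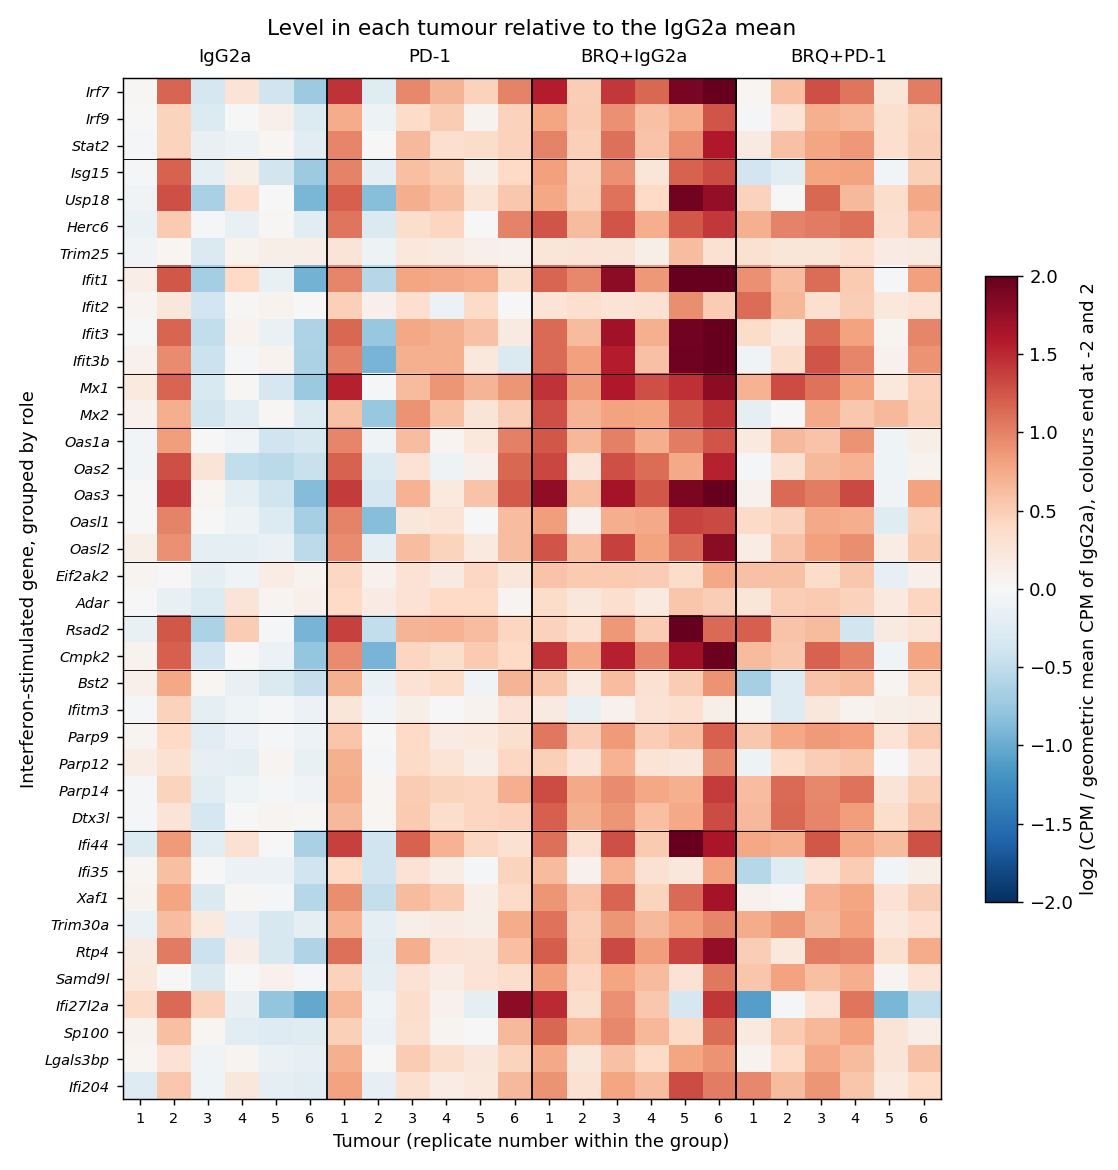
Level of each of the 38 interferon-stimulated genes (rows, grouped by role) in each of the 24 tumours (columns, by replicate number within the group), as the log2 ratio of CPM to the geometric mean of the IgG2a tumours. The BRQ+IgG2a columns are mostly red, IgG2a replicate 2 is redder than the rest of its group, and PD-1 replicate 2 is bluer than the rest of its group.

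The members that carry the signal itself rose together, 3 of 3. Stat2, the subunit that brings the activation domain to the interferon complex, was at 39.8, 44.1 and 63.2 CPM in IgG2a (lowest, median and highest tumour, here and in the following values) and at 64.0, 90.3 and 141 CPM in BRQ+IgG2a. It was at 46.4, 61.8 and 90.6 CPM in PD-1 and at 52.1, 67.3 and 84.6 CPM in BRQ+PD-1. Every BRQ+IgG2a tumour was thus above every IgG2a tumour, while the PD-1 and BRQ+PD-1 ranges overlapped those of both. Its log2 fold change against IgG2a was 0.97 ± 0.17 (SE; 1.96-fold, adjusted p 0.00171) in BRQ+IgG2a. Irf9, the DNA-binding subunit, was at 28.5, 34.6 and 47.2 CPM in IgG2a and at 49.3, 58.9 and 82.6 CPM in BRQ+IgG2a, again with no overlap, and rose by 0.79 ± 0.15 (adjusted p 0.00327). In PD-1 it was at 32.1, 46.2 and 57.7 CPM and in BRQ+PD-1 at 34.2, 45.5 and 56.5 CPM, overlapping IgG2a. Irf7, the factor that amplifies interferon production, rose by 1.37 ± 0.32 (adjusted p 0.0178), the largest change of the 3, while its IgG2a range of 13.9 to 51.4 CPM overlapped the BRQ+IgG2a range of 32.4 to 95.2 CPM, and its call was lost in 3 of the 12 fits without 1 library (0.0602 without BRQ+IgG2a replicate 6).

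In the ISG15 system, which couples a ubiquitin-like protein to other proteins, 1 of 4 members rose. Herc6, the ligase for ISG15 in mice, was at 7.0, 7.76 and 11.8 CPM in IgG2a, 6.74, 10.8 and 17.3 CPM with PD-1, 12.7, 19.5 and 21.9 CPM with BRQ+IgG2a, and 10.3, 14.9 and 17.6 CPM with BRQ+PD-1. All BRQ+IgG2a tumours were above all IgG2a tumours, and the highest IgG2a tumour reached into the BRQ+PD-1 range. Herc6 rose by 1.09 ± 0.21 (2.13-fold, adjusted p 0.00347). Isg15 itself (0.73 ± 0.28, adjusted p 0.195), Usp18, which removes ISG15 and dampens the receptor (1.02 ± 0.36, 0.136), and Trim25, a ubiquitin ligase that activates RIG-I (0.31 ± 0.09, 0.0581), did not pass. Isg15 ran from 11.0 to 40.9 CPM in IgG2a and from 21.5 to 44.9 CPM in BRQ+IgG2a, and IgG2a replicate 2 was the tumour in the overlap.

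The IFIT family, whose products bind viral RNA ends and block their translation, had 3 of 4 members called, with a median log2 fold change of 1.37. Ifit1 was at 9.41, 18.2 and 43.1 CPM in IgG2a, 12.2, 30.3 and 35.8 CPM with PD-1, 33.2, 51.9 and 78.1 CPM with BRQ+IgG2a, and 17.8, 29.9 and 39.3 CPM with BRQ+PD-1. A single IgG2a tumour, replicate 2, lay within the BRQ+IgG2a range. Ifit1 rose by 1.40 ± 0.34 (2.64-fold, adjusted p 0.0198). Ifit3b was at 4.26, 6.72 and 12.8 CPM in IgG2a, 3.48, 9.2 and 13.3 CPM with PD-1, 9.98, 17.1 and 28.5 CPM with BRQ+IgG2a, and 6.29, 10.4 and 15.9 CPM with BRQ+PD-1. It rose by 1.38 ± 0.34 (adjusted p 0.0213), beside Ifit3 at 1.36 ± 0.34 (0.0241). These 3 genes have broad spreads and were called in 8, 8 and 5 of the 12 fits without 1 library, with the highest adjusted p 0.0639 (Ifit1), 0.0766 (Ifit3b) and 0.0819 (Ifit3), each without BRQ+IgG2a replicate 6. Ifit2 went another way in size, with 42.9, 57.8 and 66.1 CPM in IgG2a and 68.0, 70.2 and 107 CPM in BRQ+IgG2a. Its groups did not overlap, yet its log2 fold change of 0.46 ± 0.16 did not pass (adjusted p 0.143).

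Both dynamin-like GTPases rose. Mx1, whose product traps influenza-type nucleocapsids in the nucleus, was at 2.56, 3.9 and 9.53 CPM in IgG2a, 4.16, 7.37 and 12.5 CPM with PD-1, 7.69, 11.7 and 14.8 CPM with BRQ+IgG2a, and 4.92, 7.2 and 10.5 CPM with BRQ+PD-1. Again IgG2a replicate 2 was the tumour that overlapped BRQ+IgG2a. Mx1 rose by 1.29 ± 0.28 (2.45-fold, adjusted p 0.0102). Mx2 was the least abundant member, at 1.14, 1.38 and 2.42 CPM in IgG2a, 0.861, 2.12 and 2.72 CPM with PD-1, 2.35, 2.99 and 3.93 CPM with BRQ+IgG2a, and 1.28, 2.08 and 2.47 CPM with BRQ+PD-1. It rose by 1.01 ± 0.24 (adjusted p 0.0185) and lost the call in 3 of 12 fits without 1 library (0.0639 without BRQ+IgG2a replicate 6). C57BL/6 mice are known to carry a defective Mx1 gene.

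Among the oligoadenylate synthetases, which make the messenger that activates RNase L, and their relatives, 3 of 5 rose. Oasl2 was at 28.1, 36.4 and 76.2 CPM in IgG2a, 35.8, 58.5 and 78.0 CPM with PD-1, 61.9, 93.0 and 142 CPM with BRQ+IgG2a, and 44.7, 59.3 and 76.9 CPM with BRQ+PD-1. IgG2a replicate 2 was the single tumour of its group inside the BRQ+IgG2a range. Oasl2 rose by 1.13 ± 0.23 (2.19-fold, adjusted p 0.0054). Oas1a was at 8.66, 11.0 and 20.5 CPM in IgG2a, 10.9, 15.4 and 23.1 CPM with PD-1, 18.1, 23.1 and 27.4 CPM with BRQ+IgG2a, and 10.8, 15.0 and 21.3 CPM with BRQ+PD-1. It rose by 0.93 ± 0.22 (adjusted p 0.016, and 0.0515 without IgG2a replicate 6). Oas3 had the largest change of all members, 1.42 ± 0.36 (2.68-fold, adjusted p 0.0259), and was called in 5 of 12 fits without 1 library (0.078 without BRQ+IgG2a replicate 6). Oas2 (0.93 ± 0.31, adjusted p 0.108) and Oasl1, which holds back Irf7 translation (0.81 ± 0.28, 0.136), did not pass.

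The kinase and the editing enzyme for double-stranded RNA rose by less than the median member. Eif2ak2, which encodes PKR, the kinase that stops translation, was at 34.9, 40.2 and 43.7 CPM in IgG2a, 41.9, 47.2 and 52.7 CPM with PD-1, 51.1, 56.8 and 67.5 CPM with BRQ+IgG2a, and 35.4, 54.4 and 59.1 CPM with BRQ+PD-1. The BRQ+IgG2a tumours lay above all IgG2a tumours, and the BRQ+PD-1 tumours spanned both ranges. Eif2ak2 rose by 0.54 ± 0.10 (1.46-fold, adjusted p 0.00379). Adar, the adenosine deaminase that marks cellular RNA as self, was at 51.6, 63.6 and 74.8 CPM in IgG2a, 65.0, 79.1 and 82.1 CPM with PD-1, 71.0, 79.5 and 91.5 CPM with BRQ+IgG2a, and 71.2, 84.6 and 89.0 CPM with BRQ+PD-1. Its 3 treated groups lay at similar levels, and IgG2a overlapped each of them. Adar rose by 0.36 ± 0.10 (adjusted p 0.0372) and was called in 3 of 12 fits without 1 library (0.116 without BRQ+IgG2a replicate 6).

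The neighbours Cmpk2, a mitochondrial nucleotide kinase, and Rsad2, the radical SAM enzyme viperin, which makes a chain-terminating nucleotide, differed in their spread. Cmpk2 was at 4.74, 7.81 and 18.5 CPM in IgG2a, 4.23, 10.8 and 15.6 CPM with PD-1, 13.6, 22.9 and 31.5 CPM with BRQ+IgG2a, and 7.69, 13.3 and 18.3 CPM with BRQ+PD-1. IgG2a replicate 2 lay within the BRQ+IgG2a range and the other 5 below it. Cmpk2 rose by 1.31 ± 0.31 (2.48-fold, adjusted p 0.0162, and 0.0559 without BRQ+IgG2a replicate 6). Rsad2 was at 5.27, 9.37 and 23.7 CPM in IgG2a and at 12.7, 16.3 and 46.4 CPM in BRQ+IgG2a, where replicate 5 alone gave the highest value. Its change of 0.92 ± 0.39 did not pass (adjusted p 0.255).

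Neither membrane factor passed. Ifitm3, which blocks fusion of viruses in endosomes, was at 373, 409 and 585 CPM in IgG2a, 409, 454 and 521 CPM with PD-1, 384, 470 and 535 CPM with BRQ+IgG2a, and 355, 453 and 496 CPM with BRQ+PD-1. The 4 groups overlapped throughout, and its highest tumour was an IgG2a tumour. Its log2 fold change in BRQ+IgG2a was 0.13 ± 0.11, with a 95% interval from -0.10 to 0.36 (adjusted p 0.639). Bst2, which encodes tetherin, had 0.47 ± 0.21 (adjusted p 0.3).

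The PARP and DTX3L group was called whole, 4 of 4. PARP9 and DTX3L form a complex of an ADP-ribosyltransferase and a ubiquitin ligase, and PARP14 modifies proteins with single ADP-ribose units. Dtx3l was at 38.3, 48.9 and 57.6 CPM in IgG2a, 49.4, 65.6 and 75.8 CPM with PD-1, 73.3, 85.2 and 119 CPM with BRQ+IgG2a, and 61.5, 80.9 and 107 CPM with BRQ+PD-1. Both brequinar groups lay above all 6 IgG2a tumours. Dtx3l rose by 0.92 ± 0.13 (1.89-fold), and its adjusted p of 0.000414 was the smallest of the members. Parp14 was at 49.0, 55.1 and 78.2 CPM in IgG2a, 58.9, 79.9 and 96.1 CPM with PD-1, 93.4, 104 and 150 CPM with BRQ+IgG2a, and 68.5, 99.5 and 126 CPM with BRQ+PD-1. It rose by 0.98 ± 0.15 (1.97-fold, adjusted p 0.000793) with no overlap between BRQ+IgG2a and IgG2a. Parp9 was at 40.3, 44.7 and 61.2 CPM in IgG2a, 46.8, 56.0 and 68.3 CPM with PD-1, 65.8, 77.5 and 107 CPM with BRQ+IgG2a, and 56.5, 73.5 and 84.1 CPM with BRQ+PD-1. It also separated BRQ+IgG2a from IgG2a, and rose by 0.79 ± 0.13 (adjusted p 0.00085). Parp12, which acts on viral and Golgi proteins, rose by 0.49 ± 0.13 (adjusted p 0.0342) and was called in 4 of 12 fits without 1 library (0.135 without BRQ+IgG2a replicate 6).

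Of the 10 other effectors and regulators, 8 rose. Samd9l, an antiviral translation inhibitor, was at 26.2, 32.2 and 36.9 CPM in IgG2a, 27.8, 38.6 and 43.7 CPM with PD-1, 39.0, 52.3 and 66.3 CPM with BRQ+IgG2a, and 33.3, 47.6 and 55.7 CPM with BRQ+PD-1. BRQ+IgG2a did not overlap IgG2a, and 1 low BRQ+PD-1 tumour did. Samd9l rose by 0.68 ± 0.13 (1.6-fold, adjusted p 0.00327). Sp100, of the nuclear bodies, was at 34.2, 38.5 and 62.1 CPM in IgG2a, 37.7, 46.9 and 64.3 CPM with PD-1, 53.1, 72.0 and 90.6 CPM with BRQ+IgG2a, and 44.6, 53.9 and 71.1 CPM with BRQ+PD-1. IgG2a replicate 2 overlapped the BRQ+IgG2a range, and Sp100 rose by 0.80 ± 0.16 (adjusted p 0.00462). Lgals3bp, a secreted glycoprotein that binds galectin-3, was at 178, 197 and 245 CPM in IgG2a, 200, 265 and 327 CPM with PD-1, 238, 320 and 375 CPM with BRQ+IgG2a, and 211, 283 and 339 CPM with BRQ+PD-1. The lowest tumour of each treated group reached into the IgG2a range, and Lgals3bp rose by 0.62 ± 0.13 (adjusted p 0.00823).

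The others of this group that rose were Ifi44 (1.32 ± 0.34, adjusted p 0.0301), Rtp4, a chaperone of receptor transport (1.10 ± 0.26, 0.0178), Xaf1, an antagonist of an apoptosis inhibitor (0.97 ± 0.23, 0.0205), Ifi204, a nuclear DNA sensor (0.83 ± 0.19, 0.0158), and Trim30a, a restrictor of inflammatory signalling (0.79 ± 0.17, 0.0115). Of these 5, Trim30a kept its call in the 12 fits without 1 library, while Ifi44 was called in 6, Xaf1 in 8, Rtp4 in 9 and Ifi204 in 10. Ifi35 (0.44 ± 0.17, adjusted p 0.2) and Ifi27l2a (0.64 ± 0.41, 0.511) did not pass. Ifi27l2a ran from 7.09 to 25.3 CPM in BRQ+IgG2a and from 4.41 to 19.6 CPM in IgG2a.

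**Figure D2:**
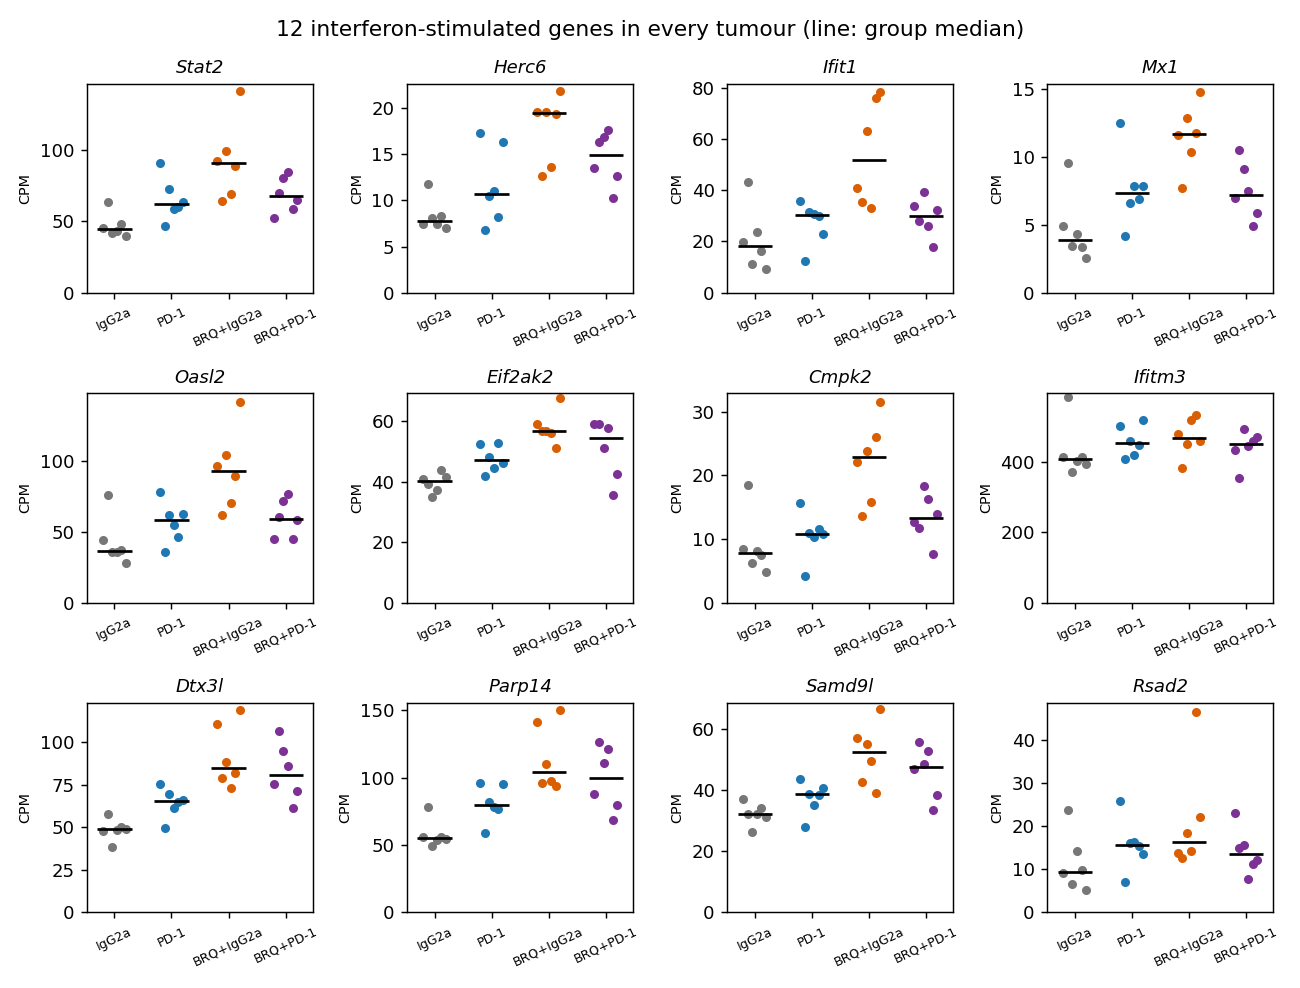
CPM of 12 interferon-stimulated genes in every tumour, 1 point per tumour in order of replicate number within each of the 4 groups, with a line at the group median and axes that start at 0. Dtx3l shows both brequinar groups above all IgG2a tumours (38.3 to 57.6 CPM), Ifitm3 shows 4 overlapping groups, and Rsad2 shows 1 BRQ+IgG2a tumour at 46.4 CPM above all others.

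Tumours given both treatments were compared with the IgG2a controls. Of the 38 members 8 rose and 0 fell, where 2.48% of all genes tested rose and 1.43% fell. The IgG2a tumours are shared with BRQ+IgG2a against IgG2a, so the values stand side by side. Changes were positive for 37 members with a median log2 fold change of 0.48, against 0.01 for all genes, and 20 had an unadjusted p under 0.05 (23.3% of all genes tested). DESeq2 called 12 members (4.14% of all genes higher) and limma voom 18 (5.78%). Called were Dtx3l (0.78 ± 0.13, adjusted p 0.00217), Parp14 (0.78 ± 0.15, 0.00559), Parp9 (0.64 ± 0.13, 0.0059), Samd9l (0.53 ± 0.13, 0.0222), Adar (0.39 ± 0.10, 0.0244), Herc6 (0.81 ± 0.21, 0.0294), Eif2ak2 (0.38 ± 0.10, 0.0424) and Lgals3bp (0.47 ± 0.13, 0.0439). In each of the 8, 6 of 6 tumours lay above the IgG2a mean, except Eif2ak2 with 5 of 6. All 6 BRQ+PD-1 tumours were above all 6 IgG2a tumours for Dtx3l and Trim25 (0.25 ± 0.09, adjusted p 0.101), a separation seen upward in 1.43% of all genes tested.

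By role, 3 of the 4 PARP and DTX3L genes, both genes of the double-stranded RNA kinase and deaminase pair, 1 of 4 of the ISG15 system and 2 of 10 other effectors rose. No member was called among the signal and transcription factors, the IFIT, Mx and oligoadenylate synthetase families, Rsad2 and Cmpk2, or the membrane factors. Their median log2 fold changes were 0.55, 0.55, 0.52, 0.37, 0.46 and 0.09, beside 0.97, 1.37, 1.15, 0.93, 1.11 and 0.30 in BRQ+IgG2a against IgG2a. Ifit1 had 0.53 ± 0.33 (adjusted p 0.349), Oas3 0.61 ± 0.35 (0.314), Irf7 0.64 ± 0.32 (0.231), Stat2 0.55 ± 0.17 (0.0648) and Ifit2 0.56 ± 0.16 (0.0522). Isg15, at 13.9 to 31.8 CPM, had 0.17 ± 0.28 (0.754).

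Of the 8 calls, Dtx3l, Parp14 and Parp9 held in the 12 fits without 1 library and in the 8 other alternatives. Samd9l was called in 9 of the 12 fits (0.0641 without IgG2a replicate 3), Adar in 6 (0.0795 without IgG2a replicate 3), Herc6 in 5 (0.07 without BRQ+PD-1 replicate 3), Lgals3bp in 3 (0.108 without BRQ+PD-1 replicate 3) and Eif2ak2 in 2 (0.105 without BRQ+PD-1 replicate 2). The count was 3 without IgG2a replicate 3, BRQ+PD-1 replicate 2 or BRQ+PD-1 replicate 3, 4 without IgG2a replicate 1, 5 without IgG2a replicates 4, 5 or 6, and 12 without IgG2a replicate 2. Without the 4 muscle-rich libraries it was 6, where 2.04% of all genes rose. Of the 8 T cell markers 1 rose in this comparison and of the 6 natural killer and cytotoxic markers 1, while 3 of 5 markers of conventional dendritic cells did. The T cell markers summed to 16.9 to 86.0 CPM in BRQ+PD-1.

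Anti-PD-1 alone was compared in PD-1 against IgG2a. None of the 38 members was called by edgeR, by DESeq2 or by limma voom, where edgeR called 0.0187% of all genes tested higher and 0.0% lower, DESeq2 0.123% and 0.0491%, and limma voom 0.0499% and 0.00624%. The changes were all positive, with a median of 0.33 against -0.00 for all genes. Members that move together in a tumour are not separate observations of this direction. An unadjusted p under 0.05 was found for 10 members, against 6.46% of all genes tested either way. The smallest adjusted p was 0.467, for Parp14 (0.47 ± 0.15). Further values were 0.69 ± 0.28 for Mx1 (adjusted p 0.649), 0.64 ± 0.32 for Irf7 (0.765), 0.46 ± 0.17 for Stat2 (0.545), 0.40 ± 0.13 for Dtx3l (0.489) and 0.38 ± 0.33 for Ifit1 (0.895). No member separated the groups, against 0.306% of all genes upward, and in 4 members 6 of 6 PD-1 tumours lay above the IgG2a mean. The 95% interval for Ifit1, from -0.31 to 1.06, includes no change as well as the value of 0.53 in BRQ+PD-1 against IgG2a.

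**Figure D3:**
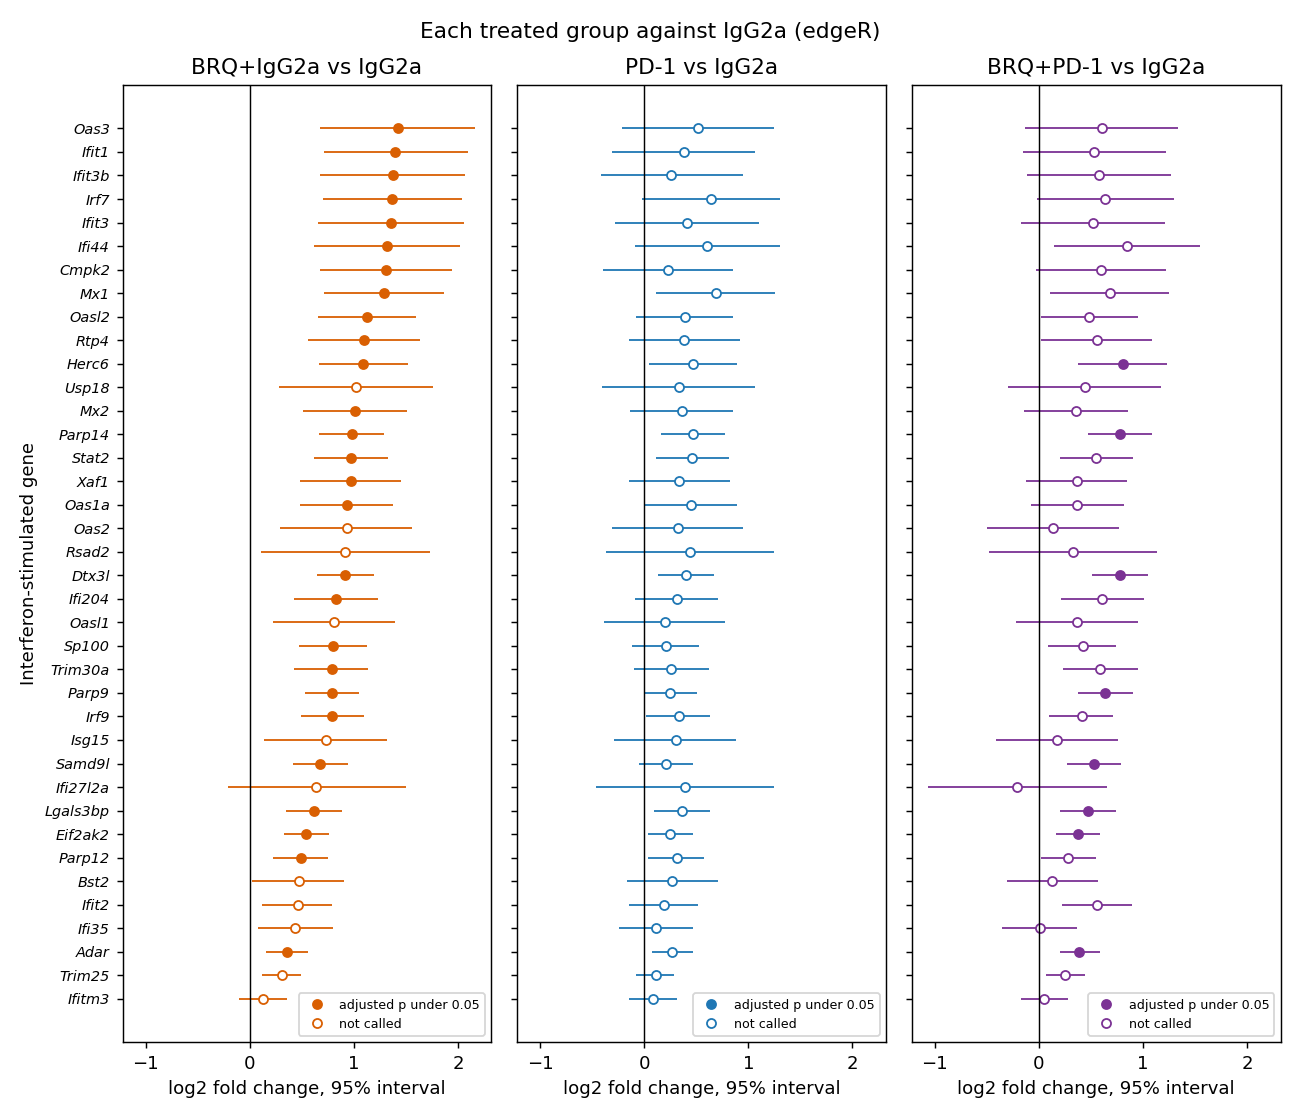
Log2 fold change of each member against IgG2a with its 95% interval, for BRQ+IgG2a, PD-1 and BRQ+PD-1, ordered by the change in BRQ+IgG2a. Filled points have an edgeR adjusted p under 0.05 (27, 0 and 8 genes), and the 3 panels share the 6 IgG2a tumours.

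Brequinar on top of anti-PD-1 was compared in BRQ+PD-1 against PD-1. None of the 38 members was called by edgeR or limma voom, where 2.38% of all genes rose and 2.66% fell, and DESeq2 called Parp9 alone. DESeq2 called 3.55% of all genes higher and 4.38% lower, and limma voom 6.59% and 7.09%. The median log2 fold change was 0.11, with 28 positive and 10 negative values and 5 members at an unadjusted p under 0.05, against 21.4% of all genes. This median and split depended on single tumours. They were 0.2, with 34 positive and 4 negative, without PD-1 replicate 1, and 0.01, with 20 and 18, without PD-1 replicate 2. Parp9 and Dtx3l had 0.39 ± 0.13 each (adjusted p 0.0734 and 0.085), and both passed without BRQ+PD-1 replicate 5. Parp14 had 0.31 ± 0.15 (0.233) and Ifi27l2a -0.60 ± 0.41 (0.42). Without PD-1 replicate 6, the highest PD-1 tumour for Ifi27l2a at 30.9 CPM, that value was -0.20 (adjusted p 0.853), and it was -0.92 without BRQ+PD-1 replicate 4. The PARP and DTX3L group had the highest median of the 10 role groups, 0.35, and the membrane factors the lowest, -0.08.

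Adding anti-PD-1 to brequinar, in BRQ+PD-1 against BRQ+IgG2a, gave 0 calls among the members and 0.0% among all genes by edgeR. DESeq2 and limma voom also called no member, where DESeq2 called 0.00608% of all genes higher and 0.0% lower and limma voom 2.78% and 1.09%. The direction was negative for 36 of 38 members, with a median of -0.44, and 17 had an unadjusted p under 0.05, against 7.29% of all genes tested. Ifit1 had -0.87 ± 0.33, Ifi27l2a -0.85 ± 0.42, Ifit3 -0.84 ± 0.33 and Irf7 -0.73 ± 0.32, each at an adjusted p of 0.665. The 4 PARP and DTX3L genes lay between -0.20 and -0.14.

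Whether the brequinar effect differed with the antibody was tested by the interaction. Its value was negative for all 38 members, with a median log2 difference of -0.80 against -0.00 for all genes, and none was called by edgeR, nor any of all genes tested, 0.0% (lowest adjusted p 0.387, for Stat2 at -0.89 ± 0.24). There were 27 members at an unadjusted p under 0.05, against 7.62% of all genes tested either way. DESeq2 called none (0.0414% of all genes higher, 0.0178% lower), and limma voom with sample weights called 6 lower, namely Mx1, Eif2ak2, Sp100, Oasl2, Parp14 and Oas1a, where it called 0.898% of all genes higher and 0.799% lower. In the main test Mx1 had -1.30 ± 0.39 (adjusted p 0.461), Oas1a -1.01 ± 0.31 (0.465), Oasl2 -1.04 ± 0.32 (0.49), Parp14 -0.67 ± 0.21 (0.529), Eif2ak2 -0.42 ± 0.15 (0.534) and Sp100 -0.59 ± 0.22 (0.576). The estimates pointed to a smaller brequinar effect under anti-PD-1, which the main test did not show. Members tended to be high or low together in a tumour, so their shared direction is not 38 separate observations. Without the 4 muscle-rich libraries the median was -1.02 and again no member was called.

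**Figure D4:**
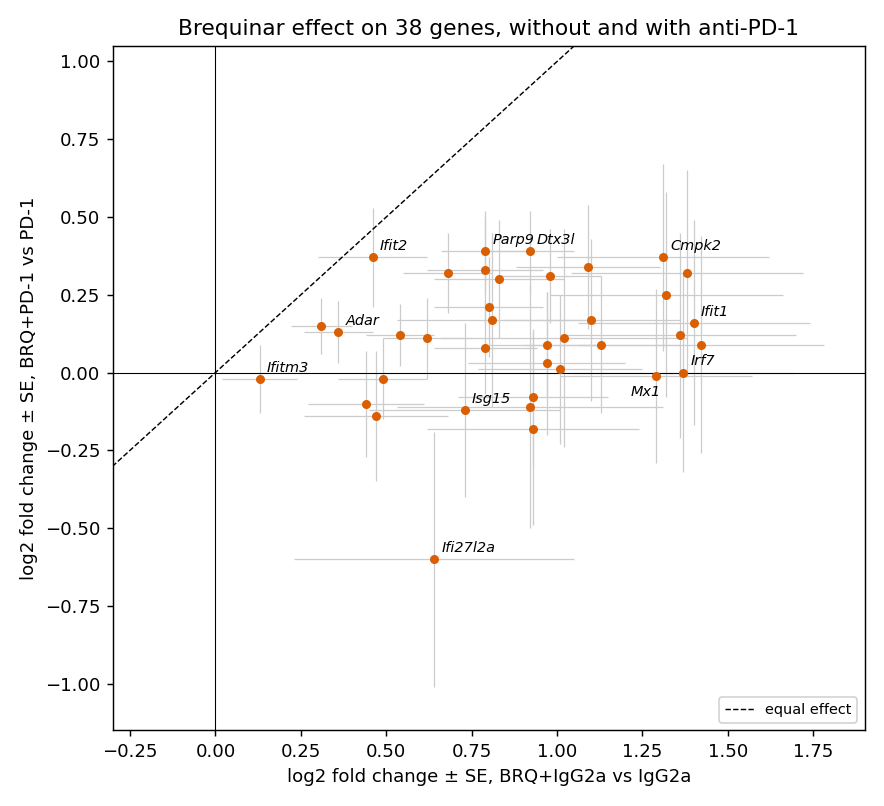
Log2 fold change ± SE of each of the 38 genes for brequinar without anti-PD-1 (horizontal, BRQ+IgG2a against IgG2a) and with it (vertical, BRQ+PD-1 against PD-1), which share no tumour. All 38 points lie under the dashed line of equal effect, and on the vertical axis they run from -0.60 to 0.39.

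Averaged over both antibodies, 12 brequinar tumours against 12 without, 26 of 38 members rose and 0 fell, where 6.91% of all genes tested rose and 5.57% fell. An unadjusted p under 0.05 was found for 31 members and 27.7% of all genes. The median log2 fold change was 0.51. Dtx3l (0.65 ± 0.09, adjusted p 0.000107), Parp9 (0.59 ± 0.09, 0.000214), Parp14 (0.65 ± 0.11, 0.000557) and Samd9l (0.50 ± 0.09, 0.00107) had the smallest adjusted p. Trim25 (0.23 ± 0.06, 0.0213) and Ifit2 (0.41 ± 0.11, 0.0198), which did not pass in either group alone against IgG2a, passed here. The count lay between 18 and 30 without each library in turn.

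The order of the 4 group means was similar across members. BRQ+IgG2a was highest in 36 and BRQ+PD-1 in 2, and IgG2a was lowest in 37. In 24 members the order from high to low was BRQ+IgG2a, BRQ+PD-1, PD-1 and IgG2a, and in 11 the 2 middle groups were exchanged. No member was called by edgeR between the neighbours BRQ+PD-1 and PD-1, BRQ+IgG2a and BRQ+PD-1, or PD-1 and IgG2a, which does not show that these levels are equal. Calls came from the brequinar groups against IgG2a.

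Members tended to be high or low together in a tumour. The median over the 38 genes of the log2 difference from the IgG2a mean ran from -0.39 to 0.73 for IgG2a, from -0.20 to 0.84 for PD-1, from 0.44 to 1.28 for BRQ+IgG2a, and from 0.15 to 0.75 for BRQ+PD-1. In IgG2a, replicate 2 gave the 0.73 and was the highest of its group for 34 members. In PD-1, replicate 1 was highest for 29 members and replicate 2 lowest for 35. In BRQ+IgG2a, replicate 6 was highest for 26 and replicate 2 lowest for 22, and in BRQ+PD-1 replicates 3 and 4 were highest for 14 each. The summed level of the 38 genes was 1493, 1654 and 2418 CPM in IgG2a, 1600, 2108 and 2618 CPM with PD-1, 2089, 2761 and 3322 CPM with BRQ+IgG2a, and 1899, 2195 and 2585 CPM with BRQ+PD-1. Groups of tumours thus overlapped on this sum, with IgG2a replicate 2 above the lowest tumours of every treated group.

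The tumour with the highest member median also had the highest T cell marker sum in IgG2a, BRQ+IgG2a and BRQ+PD-1, and not in PD-1. IgG2a replicate 2 had the highest T cell marker sum of its group (44.7 CPM, next tumour 21.9), the highest natural killer and cytotoxic sum (27.8 CPM) and the highest Ifng (2.11 CPM, next tumour 0.442). BRQ+IgG2a replicate 6 had the highest T cell sum of all tumours, 150 CPM, and the highest Ifng, 3.8 CPM. Ifng levels rested on few counts, from 1 to 61 per library in IgG2a and from 7 to 88 in BRQ+IgG2a. In BRQ+PD-1, replicate 3 had both the highest member median, 0.75, and the highest T cell sum, 86.0 CPM. In PD-1 these fell to different tumours, with the highest member median in replicate 1 (0.84, T cell sum 40.7 CPM) and the highest T cell sum in replicate 6 (61.6 CPM, member median 0.42). A further pair of tumours was singled out after their values were seen. BRQ+IgG2a replicate 5 had the lowest T cell sum (20.7 CPM), macrophage sum (898 CPM) and Ifng (0.325 CPM) of its group, yet its median over the members was 1.1, second to replicate 6, and 37 members lay above the IgG2a mean. It was the highest of its group for Usp18, Trim25, Ifit2, Oasl1, Adar, Rsad2, Ifitm3, Ifi44 and Ifi204, and the lowest for Eif2ak2, Parp12, Parp14, Samd9l, Ifi27l2a and Sp100. BRQ+PD-1 replicate 1 had the lowest T cell sum of its group, 16.9 CPM, and a low member median, 0.38, above that of replicate 5 at 0.15. It was highest for Ifit2 (122 CPM), Rsad2 (23.0 CPM) and Ifi204, and lowest for 11 members. These tumours also had the highest melanocytic marker sums of the series, 38.6 and 48.3 CPM, and the lowest fibroblast marker sums, 5050 and 4990 CPM. Of the 7 melanocytic markers only Mitf and Pmel were abundant enough to be tested, so their sum does not mark the amount of cancer cells. The part of cell composition in the members' levels was not tested.

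**Figure D5:**
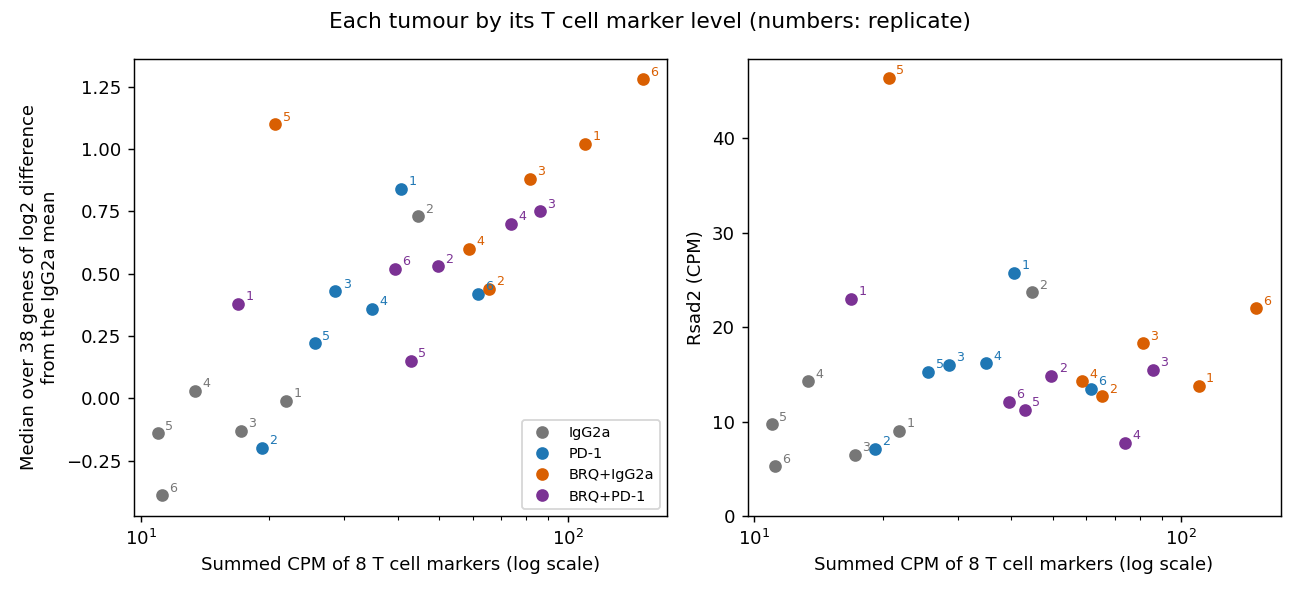
Each of the 24 tumours by the summed CPM of 8 T cell markers (log axis) against the median log2 difference of the 38 members from the IgG2a mean (left) and against Rsad2 in CPM (right), with replicate numbers beside the points. BRQ+IgG2a replicate 5 stands apart, with 20.7 CPM of T cell markers, a member median of 1.1 and Rsad2 at 46.4 CPM.

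Ligands of the pathway were at or near the limit of detection. Of 20 interferon genes only Ifng was abundant enough to be tested. Ifnb1 had 34 counts in 13 of 24 libraries, with 14 of them in BRQ+IgG2a, 10 in BRQ+PD-1, 7 in PD-1 and 3 in IgG2a. Ifna1 and Ifna13 had 1 count each, Ifnk 4 and Ifne 23, and the other 14 listed had none in any library, so a difference in type I ligand was not detectable at this depth. Ifng had a log2 fold change of 1.68 ± 0.66 in BRQ+IgG2a (adjusted p 0.201) and 1.17 ± 0.66 in BRQ+PD-1 (0.293) against IgG2a, and did not pass.

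None of the 5 receptor genes tested, of 6 listed, was called in BRQ+IgG2a or BRQ+PD-1 against IgG2a by edgeR, with Ifnar1 at 0.18 ± 0.08 and Ifnar2 at 0.21 ± 0.09 in BRQ+IgG2a (adjusted p 0.263 and 0.224) and 2 of the 5 at an unadjusted p under 0.05. In the average over both antibodies, Ifnar1 (0.18 ± 0.05, adjusted p 0.0304) and Ifngr1 (0.18 ± 0.06, 0.0428) rose by small amounts. Of the 5 brakes and late regulators listed, none was called in either comparison, and Socs1, which blocks the kinases, had 0.52 ± 0.23 in BRQ+IgG2a (adjusted p 0.289).

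Among sensors of nucleic acid, in BRQ+IgG2a against IgG2a, 6 of the 13 tested rose and 0 fell. The cytosolic RNA sensors Rigi, Ifih1 and Dhx58 rose by 0.52 ± 0.09 (adjusted p 0.00185), 0.91 ± 0.16 (0.00159) and 1.09 ± 0.25 (0.0146), the endosomal receptors Tlr3 and Tlr9 by 0.58 ± 0.12 (0.00462) and 1.43 ± 0.32 (0.0117), and the Z-form nucleic acid sensor Zbp1 by 1.30 ± 0.28 (0.00943). Several of these are themselves induced by interferon. The DNA sensor Cgas had 0.06 ± 0.16, and the adaptors and factor downstream, Sting1, Mavs and Irf3, had -0.15 ± 0.10, -0.13 ± 0.08 and -0.24 ± 0.14, with adjusted p from 0.471 to 0.915. In BRQ+PD-1 against IgG2a, 5 of 13 rose, namely Rigi (0.34 ± 0.09, 0.0429), Ifih1 (0.63 ± 0.16, 0.0269), Tlr3 (0.54 ± 0.12, 0.011), Tlr9 (1.22 ± 0.32, 0.0315) and the DNA sensor Aim2 (0.89 ± 0.24, 0.0381). Aim2 was also called in BRQ+PD-1 against PD-1 (0.87 ± 0.24, 0.0334), the only sensor that was.

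Families that lean toward interferon gamma had larger medians than the members in the same comparisons. All 9 guanylate-binding protein genes rose in BRQ+IgG2a against IgG2a (median log2 fold change 1.67), and 8 of 9 in BRQ+PD-1 (1.34), beside medians of 0.92 and 0.48 for the 38 members. Gbp4 rose by 1.96 ± 0.36 (adjusted p 0.00303) and 1.53 ± 0.35 (0.0192). Of 11 further genes of this kind 9 and 6 rose, with medians of 1.61 and 0.98, among them Cxcl9, a T cell chemokine, by 1.79 ± 0.37 (0.00846) and 1.61 ± 0.37 (0.0196). Of these 11 genes, 2 and 5 did not pass, among them Cxcl10 at 1.04 ± 0.35 (0.122) and 0.53 ± 0.35 (0.381). The difference between these families and the members was not tested. Between members with and without the ISRE core, the medians were 0.92 (12 genes) and 0.80 (17 genes) in BRQ+IgG2a against IgG2a, and 0.45 and 0.47 in BRQ+PD-1 against IgG2a.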

How the data were processed

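The deposited count table holds raw whole-number counts per Ensembl gene for 24 libraries, not normalized by the authors. Per the labels' protocols, RNA was extracted with the RNeasy kit from lysed tumour tissue. The submitters' processing notes name HISAT2 2.2.1, StringTie 2.2.1 and Trim Galore 0.6.7, and the GRCm39 build. The program that counted reads, its annotation and its use of strand are not given in these sources, so overlapping antisense reads cannot be told apart. Deposited FPKM and TPM values were not used.

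Counts were tested with edgeR 4.0.16 (R 4.3.3): TMM factors, filterByExpr by group, a robust quasi-likelihood fit of group over all 24 libraries, and Benjamini-Hochberg adjustment over 16029 genes. Each SE was the absolute log2 fold change over the root of its F statistic. The average and interaction contrasts came from the same fit. The test was checked on simulated counts, for BRQ+IgG2a against IgG2a alone. Genes were drawn independently there, so the check does not cover members that move together in a tumour. CPM uses library totals, from 19106205 to 34282319 counts, and RPKM uses exon lengths of the GENCODE M21 annotation. A table of gene names gave symbols for 52081 of 55414 genes. Within groups, squared count differences between libraries (60 pairs) were 9.89 to 231 times those expected from counting error alone. No library was thus a copy of another in its group. Pairs across groups were not checked.

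Members and lists were chosen with earlier results of these data known. Each member is described by role; full values are given for up to 2 called members per role with the smallest adjusted p in BRQ+IgG2a against IgG2a (or the most abundant, if none was called) and for members called in another pairwise comparison or the interaction. Members that were not called or that lost the call without 1 library are also named. Irf7, Rsad2, Ifit2, Isg15 and Ifi27l2a values per tumour and the tumours singled out were chosen after their values were seen. Alternatives were other scaling factors, no filter, DESeq2 1.42.0, limma 3.58.1 voom with sample weights, a replicate number block, non-robust dispersion, only the groups compared, each library left out, and the 4 muscle-rich libraries left out. The signalling kinases and factors outside the 38 members are not reported here.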

Additional observations from a re-analysis of the deposited data

Results flagged for a closer look

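Within a group of 6 tumours, a highest or lowest tumour was marked when its gap to the next exceeded the 95% critical value of Dixon's test. Chance exceeds that value in about 1 of 20 groups if values are normally distributed. The rule used CPM without a log, and members move together, so the marks cannot be set against that rate. It was applied to the 38 members only, in each of the 4 groups, and the share of all genes that it marks was not counted. Of the marked values, 21 belonged to a single tumour, IgG2a replicate 2, which stood above the other 5 IgG2a tumours. Its levels were 51.4 CPM for Irf7, 63.2 for Stat2, 40.9 for Isg15, 11.8 for Herc6, 55.4 for Ifit3, 12.8 for Ifit3b, 9.53 for Mx1, 2.42 for Mx2, 20.5 for Oas1a, 18.2 for Oas2, 23.3 for Oas3, 12.6 for Oasl1 and 76.2 for Oasl2. Further levels in that tumour were 18.5 CPM for Cmpk2, 158 for Bst2, 585 for Ifitm3, 78.2 for Parp14, 38.1 for Ifi35, 26.4 for Xaf1, 45.5 for Rtp4 and 62.1 for Sp100. The same tumour was muscle-rich and had the highest T cell marker sum of its group, 44.7 CPM, and the part of either in these levels was not tested. As a control tumour it narrows the members' differences from IgG2a. Without it, their median log2 fold change was 1.07 in place of 0.92 for BRQ+IgG2a, and 0.63 in place of 0.48 for BRQ+PD-1. Called without it were 30 members in place of 27 for BRQ+IgG2a, and 12 in place of 8 for BRQ+PD-1. The share of all genes called was not counted in these fits.

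BRQ+IgG2a replicate 5 stood above its group for Trim25 at 147 CPM, Ifit2 at 107 CPM and Rsad2 at 46.4 CPM. PD-1 replicate 6, another muscle-rich tumour, stood above its group for Ifi27l2a at 30.9 CPM.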

How the results depend on the processing

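All 38 members kept a positive change in BRQ+IgG2a against IgG2a under the 20 alternatives. Their count of calls, 27, was 14 with the replicate block (1.99% of all genes higher) and 17 with only the groups compared, and 14 to 30 without each library. In BRQ+PD-1 against IgG2a the 8 calls became 5 with no expression filter (0.613% of all genes higher), 4 with the replicate block (1.35%) and 18 with limma voom, and 3 to 12 without each library. In BRQ+PD-1 against PD-1 the 0 became 1 with DESeq2 and 0 to 2 without each library. The average count, 26, was 16 with no filter (2.1%), 17 with the replicate block (4.96%) and 18 to 30 without each library. For the interaction limma voom called 6, lower. The counts for PD-1 against IgG2a and BRQ+PD-1 against BRQ+IgG2a were 0 under every alternative, the replicate block included. The cause of these shifts was not tested. The fit with no filter covered more genes, and the fits of only the groups compared used fewer libraries. Shares of all genes called were not counted for the fits of only the groups compared or without 1 library. The labels do not say what the replicate number marks. Deviations of same-numbered tumours correlated from -0.676 to 0.320 (36 pairs, 12 over 0.1). These values cannot tell whether same-numbered tumours shared a day or another condition.

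In BRQ+PD-1 against PD-1, the 28 positive and 10 negative changes became 34 and 4 without PD-1 replicate 1. They became 20 and 18 without PD-1 replicate 2. In BRQ+PD-1 against BRQ+IgG2a, 2 positive and 36 negative changes became 5 and 33 with limma voom. In the comparisons against IgG2a, the average and the interaction, direction turned for 3 members. In BRQ+PD-1 against IgG2a, Ifi35 became -0.01 with no filter, -0.01 with the replicate block and -0.08 to 0.14 without 1 library, and Ifi27l2a became 0.13 with limma voom, 0.28 without the muscle-rich libraries and 0.06 without IgG2a replicate 2 (-0.53 to 0.06 without each library). Ifi27l2a in PD-1 against IgG2a became -0.01 without PD-1 replicate 6 (-0.01 to 0.67 without each), and its average, 0.02, was negative in 11 fits (-0.14 to 0.22). The interaction of Ifit2 became 0.07 without BRQ+IgG2a replicate 5 (-0.25 to 0.07). Every member had at least 23 counts in every library, whereas counts sufficed to test 1 of 20 ligands, 5 of 6 receptors, 13 of 14 sensors and 2 of 7 melanocytic markers.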
